A study of Homo sapiens with 2 samples.

Results

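The 34 genes described here encode enzymes of cholesterol synthesis, enzymes that make, lengthen and desaturate fatty acids, and proteins that control both routes or move sterols. They were taken by gene symbol from a list arranged by function, and all 34 were found among the 19220 symbols of the count table. The list holds 7 genes of the mevalonate steps, 11 of the later sterol steps, 7 for regulation and uptake, and 9 of fatty acid synthesis. Messenger RNA was sequenced after polyT purification from H9, a human T cell lymphoma line that is itself a clone of an older line.

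The doxorubicin library came from H9 cells of WT genotype kept for 6 h with 0.05 µM doxorubicin, a drug that poisons topoisomerase and breaks DNA. The untreated library came from H9 cells of WT genotype and is given as 0 h of doxorubicin. Each group is 1 library, so no difference below has a replicate check and none carries a p-value. The comparison shows how the mRNAs of lipid synthesis stood in the library of drug-treated cells relative to the library of untreated cells.

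The doxorubicin library held 50174434 gene counts and the untreated library 33730703. Levels are CPM, the count divided by the TMM-scaled library size and multiplied by 1000000, and a difference is a log2 ratio of doxorubicin over untreated with an exact 95% interval. Only counting error is covered by these intervals: the labels name no molecular identifiers, so PCR copies may be among the reads, and no second culture shows how far 2 untreated libraries would differ. A gene is called higher or lower where its ratio is at least 1.5-fold and its interval excludes equality. T cell markers summed to 1132 CPM in the doxorubicin library and 1128 CPM in the untreated library, with 7 of 10 of them measured and CD2 at 2 counts with doxorubicin and 0 untreated. Within this list CD3G was 2.16-fold higher, and CD3D and CD3E had ratios 1.49-fold and 1.26-fold on the lower side, so members on both sides of equality lie behind the near-equal sums. B cell markers summed to 150 CPM in the doxorubicin library and 206 CPM in the untreated library, nearly all from CD79A, with PAX5 at 0 in both libraries. Epithelial markers summed to 67.5 CPM in the doxorubicin library and 82.2 CPM in the untreated library, nearly all from EPCAM. Fibroblast markers summed to 6.27 CPM in the doxorubicin library and 5.34 CPM in the untreated library. Myeloid markers summed to 0.31 CPM in the doxorubicin library and 0.30 CPM in the untreated library, and of the hepatocyte and adipocyte markers ALB, TTR and ADIPOQ were at 0 and PLIN1 at 4 counts in each library. The part of these markers in the lipid genes' ratios was not tested.

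Cells build cholesterol from acetyl-CoA through mevalonate, farnesyl diphosphate, squalene and lanosterol, and build fatty acids from the same acetyl-CoA through malonyl-CoA. Both routes are driven by the SREBP transcription factors, which sit in the endoplasmic reticulum bound to the escort protein SCAP. When sterols are plentiful, INSIG proteins hold SCAP there; when they are scarce, SCAP carries SREBP to the Golgi, where proteases release its active part. Dividing T cells draw on both routes for new membrane.

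All 34 genes had at least 100 counts over both libraries, so all counted as measured. Together they took 6414 CPM in the doxorubicin library and 4641 CPM in the untreated library, a ratio of sums of 1.38-fold (1.37 to 1.39). Of the 34 genes, 8 were higher in the doxorubicin library and 0 were lower. Over all 11244 measured genes, 7.26% were higher and 9.57% lower by the same rule. These were 816 genes higher and 1076 lower with TMM scaling, and 1084 higher and 852 lower when scaled by total counts. Without the 3 genes whose exons or sequence are shared with other genes, 7 of 31 were higher. The 34 log2 ratios had a median of 0.21 and ran from -0.44 to 1.07, and 24 of them (70.6%) lay above 0. All measured genes had a median log2 ratio of 0.01, with 50.7% above 0. In bulk RNA of this kind, fewer cells of a type and less RNA per cell cannot be told apart.

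**Figure D1:**
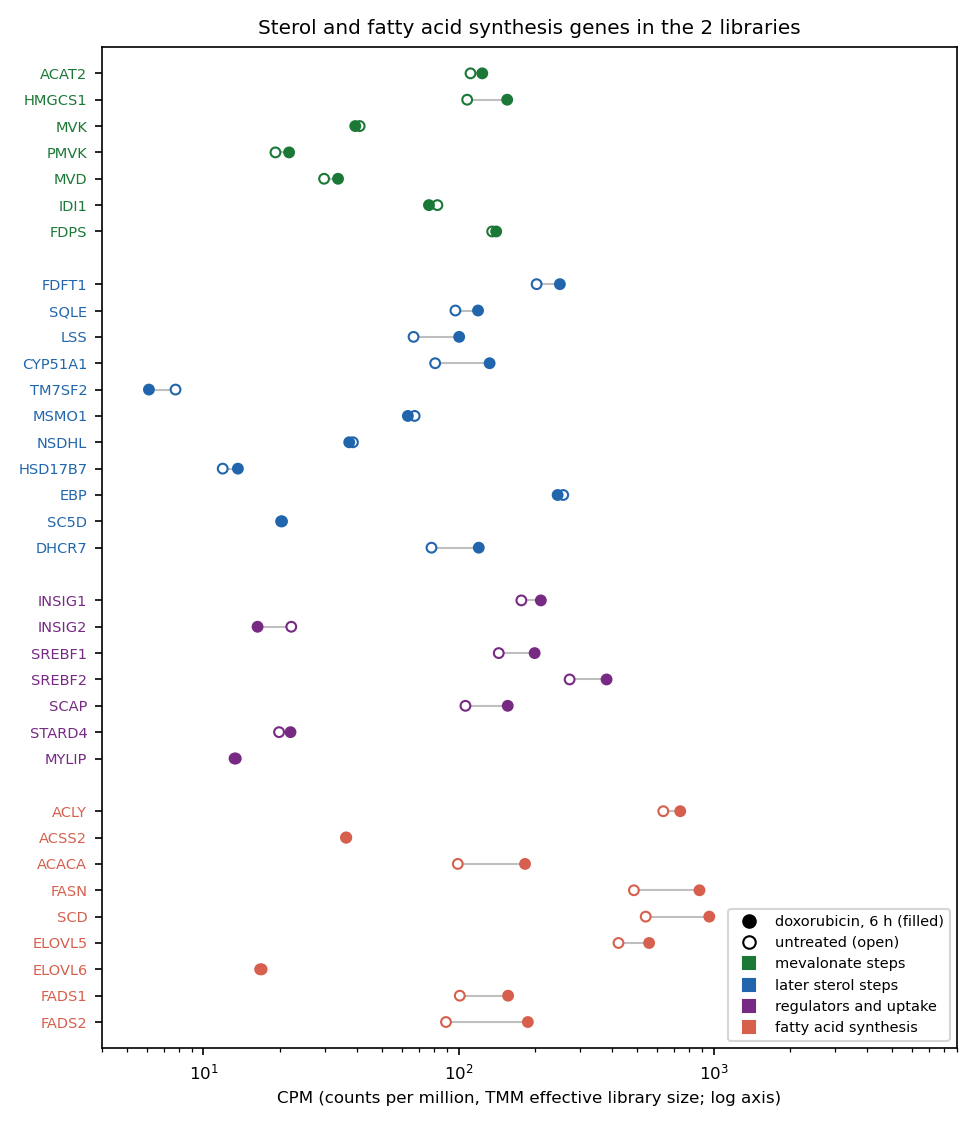
Level of each of the 34 genes in CPM on a log axis, by role, with the doxorubicin library as filled points and the untreated library as open points. The widest gaps are in fatty acid synthesis, where SCD stood at 962 CPM with doxorubicin and 542 CPM untreated and FADS2 at 187 CPM with doxorubicin and 89.3 CPM untreated, and no bar is drawn because each point is 1 library.

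The ratio of sums differed among the 4 roles. Fatty acid synthesis genes summed to 3719 CPM in the doxorubicin library and 2430.4 CPM in the untreated library, a ratio of sums of 1.53-fold (1.52 to 1.54). Regulators and uptake genes summed to 997 CPM in the doxorubicin library and 754 CPM in the untreated library, 1.32-fold (1.30 to 1.34). Later sterol genes summed to 1107 CPM in the doxorubicin library and 928 CPM in the untreated library, 1.19-fold (1.18 to 1.21). Mevalonate genes summed to 591 CPM in the doxorubicin library and 527 CPM in the untreated library, 1.12-fold (1.10 to 1.14). From highest to lowest the ratios of sums ran fatty acid synthesis, regulators, later sterol steps and mevalonate steps, and no counting interval overlapped its neighbour's. The roles' median transcript lengths ran in the same order, at 4339, 4253, 2456 and 1956 bases. Over all genes the ratio rose with transcript length, as described below, and these sums were not adjusted for it. The later sterol sum includes CYP51A1 and HSD17B7 and the mevalonate sum includes ACAT2, genes whose counts are uncertain as described below. Role sums without these genes were not computed, so the order of the later sterol and mevalonate steps may rest on them. The lack of overlap between the intervals of those roles may rest on them too. Fatty acid synthesis genes made up 58.0% of the 34 genes' counts in the doxorubicin library and 52.4% in the untreated library, and SCD with FASN alone made up 28.7% in the doxorubicin library and 22.2% in the untreated library.

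**Figure D2:**
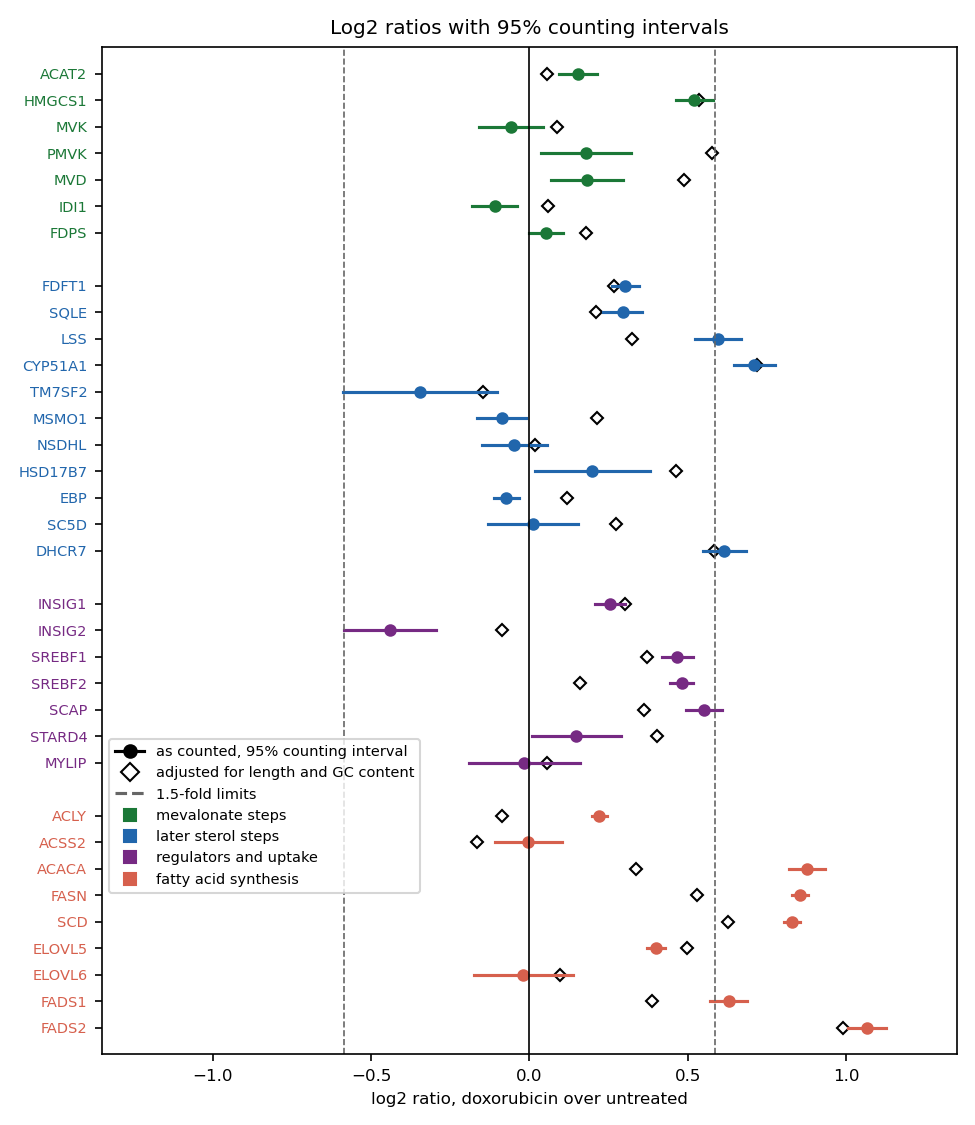
Log2 ratio of doxorubicin over untreated for each gene, by role, with the 95% counting interval as a line and dashed lines at 1.5-fold in each direction. Of the 34 genes, 8 lie past the upper dashed line, 3 of them later sterol genes and 5 fatty acid genes, and none lies past the lower one.

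In fatty acid synthesis, 5 of 9 genes were higher and 0 lower, with a median log2 ratio of 0.63. FADS2, the delta-6 desaturase that opens the route to long polyunsaturated fatty acids, had 9604 counts (187 CPM) in the doxorubicin library and 2942 counts (89.3 CPM) in the untreated library. That is a 2.09-fold higher level (2.01 to 2.18), the largest ratio of the 34 genes and at percentile 99.03 of all measured genes. FADS1, a later desaturase of that route, had 8036 counts (156 CPM) and 3332 counts (101 CPM) in the doxorubicin and untreated libraries, 1.55-fold higher (1.49 to 1.61), with an interval that reaches below 1.5-fold. The desaturases are neighbours on chromosome 11, and in GENCODE annotation 4.79% of FADS1's exon bases and 4.89% of FADS2's overlap another gene. Their log2 ratios differed by 0.44, and their counting intervals did not overlap.

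SCD, which puts the first double bond into saturated fatty acids, had 49416 counts (962 CPM) in the doxorubicin library and 17849 counts (542 CPM) in the untreated library. It was the most counted of the 34 genes in the doxorubicin library and was 1.78-fold higher there (1.75 to 1.81). FASN, the multienzyme that assembles palmitate, had 45220 counts (880 CPM) with doxorubicin and 16047 counts (487 CPM) without, 1.81-fold higher (1.77 to 1.84). ACACA, the carboxylase that makes malonyl-CoA, had 9363 counts (182 CPM) in the doxorubicin library and 3273 counts (99.3 CPM) in the untreated library, 1.83-fold higher (1.76 to 1.91). Carboxylation, chain assembly and desaturation thus each had a called gene, but after the length and GC adjustment described below ACACA at 0.34 and FASN at 0.53 were no longer called.

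The suppliers of acetyl-CoA and the elongases were not called. ACLY, which cleaves citrate to acetyl-CoA, had 38012 counts (740 CPM) in the doxorubicin library and 20918 counts (635 CPM) in the untreated library, a log2 ratio of 0.22 (0.20 to 0.25) that turned to -0.09 after the length and GC adjustment. It was the most counted of the 34 genes in the untreated library. ACSS2, which makes acetyl-CoA from acetate, had the ratio nearest to equality, at 36.2 and 36.3 CPM in the doxorubicin and untreated libraries. ELOVL5, the elongase of polyunsaturated chains, had 28699 counts (559 CPM) and 13959 counts (424 CPM) in the doxorubicin and untreated libraries, a log2 ratio of 0.40 (0.37 to 0.43) that stayed under 1.5-fold. ELOVL6, the elongase of saturated chains, had 857 counts (16.7 CPM) in the doxorubicin library and 557 counts (16.9 CPM) in the untreated library, the lowest ratio of the role at -0.02 (-0.17 to 0.14). The ELOVL5 and ELOVL6 log2 ratios differed by 0.42, with counting intervals that did not overlap.

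In the later sterol steps, 3 of 11 genes were higher and 0 lower, with a median log2 ratio of 0.20. That median is the value of HSD17B7, and without HSD17B7 and CYP51A1, whose sequence is shared with other genes, it is 0.012 over 9 genes. CYP51A1, the demethylase that acts on lanosterol, had 6801 counts (132 CPM) in the doxorubicin library and 2668 counts (81.0 CPM) in the untreated library, 1.63-fold higher (1.56 to 1.71). Its counts are uncertain, since 79.4% of its exon bases overlap another annotated gene and 89.0% of sampled stretches of its transcript occur in another gene's transcript. DHCR7, the reductase that can carry out the last step to cholesterol, had 6167 counts (120.05 CPM) and 2581 counts (78.3 CPM) in the doxorubicin and untreated libraries, 1.53-fold higher (1.46 to 1.61). LSS, the cyclase that folds squalene epoxide into lanosterol, had 5167 counts (101 CPM) with doxorubicin and 2195 counts (66.6 CPM) without, 1.51-fold higher (1.44 to 1.59). The counting intervals of LSS and DHCR7, like that of FADS1, reach below 1.5-fold, and LSS and DHCR7 are the called genes nearest to that limit.

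The other 8 later sterol genes had log2 ratios between -0.35 and 0.30. FDFT1, the squalene synthase that commits farnesyl diphosphate to sterols, had 12823 counts (249.6 CPM) in the doxorubicin library and 6667 counts (202 CPM) in the untreated library, a log2 ratio of 0.30 (0.26 to 0.35). SQLE, which oxidises squalene, was close to it at 119 CPM in the doxorubicin library and 97.2 CPM in the untreated library, with a log2 ratio of 0.29. EBP, a sterol isomerase, had 12565 counts (245 CPM) in the doxorubicin library and 8477 counts (257 CPM) in the untreated library, the most of the role in the untreated library, and a log2 ratio of -0.07 (-0.11 to -0.03) that became 0.12 after the length and GC adjustment described below. These are the most abundant uncalled steps, and they lie on both sides of 0.

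TM7SF2, a sterol reductase, had the fewest counts of the 34 genes, 314 (6.11 CPM) in the doxorubicin library and 256 (7.77 CPM) in the untreated library, and the lowest ratio of the role at -0.35 (-0.59 to -0.10). The demethylation enzymes MSMO1 and NSDHL stood at log2 ratios of -0.09 and -0.05, which turned to 0.21 and 0.02 after the adjustment. HSD17B7, their reductase partner, was at 0.20 and is uncertain because 50% of its sampled stretches occur in another gene's transcript. SC5D, a desaturase near the end of the route, had 20.3 CPM in the doxorubicin library and 20.2 CPM in the untreated library. The called enzymes were thus the cyclase, the demethylase that follows it and the reductase of the last step, with uncalled steps before and between them. After the adjustment only CYP51A1, the gene with uncertain counts, kept its call among these 3.

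In the mevalonate steps, 0 of 7 genes were higher and 0 lower, and the median log2 ratio was 0.15. HMGCS1, which joins acetyl units into HMG-CoA, had 7969 counts (155 CPM) in the doxorubicin library and 3562 counts (108 CPM) in the untreated library. Its log2 ratio of 0.52 (0.46 to 0.58), or 1.43-fold, was the highest of the role and lies just under the limit, as does the 0.55 of SCAP below. IDI1, which isomerises the isoprenoid unit, had 3934 counts (76.6 CPM) and 2722 counts (82.6 CPM) in the doxorubicin and untreated libraries, the lowest ratio of the role at -0.11 (-0.18 to -0.04), which turned to 0.06 after the length and GC adjustment.

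FDPS, which makes farnesyl diphosphate, had 7217 counts (140 CPM) in the doxorubicin library and 4463 counts (135 CPM) in the untreated library, the most of the role in the untreated library, and a log2 ratio of 0.05 (-0.00 to 0.11). The kinases MVK and PMVK and the decarboxylase MVD, which act in turn on mevalonate, had log2 ratios of -0.06, 0.18 and 0.18. ACAT2, which makes acetoacetyl-CoA, had 124 CPM in the doxorubicin library and 111 CPM in the untreated library, a log2 ratio of 0.15. Its exons overlap those of TCP1 and SOD2 over 35.8% of their bases, so its counts are uncertain. Apart from HMGCS1, every mevalonate gene in these libraries lay within a log2 ratio of -0.11 to 0.18.

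Among the regulators, 0 of 7 genes were higher and 0 lower, and the median log2 ratio was 0.25. SREBF2, which encodes the SREBP best known for sterol genes, had 19548 counts (381 CPM) in the doxorubicin library and 8981 counts (273 CPM) in the untreated library, a log2 ratio of 0.48 (0.45 to 0.52). SREBF1, which encodes the SREBP forms best known for fatty acid genes, had 10212 counts (199 CPM) and 4737 counts (144 CPM) in the doxorubicin and untreated libraries, a log2 ratio of 0.47 (0.42 to 0.52). The paralogs' ratios as counted differed by 0.01 on the log2 scale, and their intervals overlapped. After the length and GC adjustment SREBF1 stood at 0.37 (0.32 to 0.42) and SREBF2 at 0.16 (0.12 to 0.20), intervals that did not overlap. SCAP, their escort, had 8010 counts (156 CPM) in the doxorubicin library and 3507 counts (106 CPM) in the untreated library, a log2 ratio of 0.55 (0.49 to 0.61), the highest of the role.

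The INSIG paralogs lay on opposite sides of 0 as counted, but after the length and GC adjustment the interval of INSIG2, -0.23 to 0.06, included 0. INSIG1, itself a known SREBP target, had 10800 counts (210.2 CPM) in the doxorubicin library and 5809 counts (176 CPM) in the untreated library, a log2 ratio of 0.25 (0.21 to 0.30). INSIG2 had 837 counts (16.3 CPM) and 728 counts (22.1 CPM) in the doxorubicin and untreated libraries, a log2 ratio of -0.44 (-0.58 to -0.29), the lowest of the 34 genes. The difference between them was 0.69 on the log2 scale, and their counting intervals did not overlap. MYLIP, the ubiquitin ligase that removes the LDL receptor, had 680 counts (13.2 CPM) in the doxorubicin library and 441 counts (13.4 CPM) in the untreated library, a log2 ratio of -0.02 (-0.19 to 0.16). STARD4, a sterol carrier of the cytosol, had 21.9 CPM in the doxorubicin library and 19.8 CPM in the untreated library, with a log2 ratio of 0.15.

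Promoter sequence is shown for SREBF2, the only one of the 30 genes with a window here that held the sterol regulatory element letters searched. It is also shown for SCD, FADS2 and DHCR7, taken from the 5 called genes with CCAAT letters. The others of these, ACACA and LSS, are not shown. CCAAT boxes bind NF-Y, a factor known to act beside SREBP. Each window runs from 250 bases before to 50 after a transcription start in RefSeq on GRCh38.p14, a later build than the hg19 used for the counts. The SREBF2 window is chr22:41832855-41833154 on the plus strand, with the sterol element starting 133 bases and the CCAAT letters 106 bases before the start. The SCD window is chr10:100346983-100347282 on the plus strand, the FADS2 window shown chr11:61816154-61816453 on the plus strand and the DHCR7 window shown chr11:71448344-71448643 on the minus strand. FADS2 and DHCR7 have 2 windows each, and the other one of each holds no CCAAT. In the FADS2 window shown the CCAAT letters lie past the start, in the last 50 bases. Capitals mark TCACNCCAC and CCAAT on either strand (ATTGG where CCAAT lies on the other strand).
SREBF2: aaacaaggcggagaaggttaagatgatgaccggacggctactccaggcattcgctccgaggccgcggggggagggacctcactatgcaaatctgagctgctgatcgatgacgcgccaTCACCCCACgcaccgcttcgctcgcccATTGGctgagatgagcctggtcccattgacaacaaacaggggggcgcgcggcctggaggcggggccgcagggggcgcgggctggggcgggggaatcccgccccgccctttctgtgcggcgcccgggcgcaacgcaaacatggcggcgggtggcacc
SCD: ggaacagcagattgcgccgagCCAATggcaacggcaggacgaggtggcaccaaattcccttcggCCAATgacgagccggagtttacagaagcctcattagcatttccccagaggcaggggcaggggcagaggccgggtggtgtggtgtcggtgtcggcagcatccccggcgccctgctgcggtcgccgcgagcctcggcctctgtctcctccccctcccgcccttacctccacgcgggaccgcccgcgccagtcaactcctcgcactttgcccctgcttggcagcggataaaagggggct
FADS2: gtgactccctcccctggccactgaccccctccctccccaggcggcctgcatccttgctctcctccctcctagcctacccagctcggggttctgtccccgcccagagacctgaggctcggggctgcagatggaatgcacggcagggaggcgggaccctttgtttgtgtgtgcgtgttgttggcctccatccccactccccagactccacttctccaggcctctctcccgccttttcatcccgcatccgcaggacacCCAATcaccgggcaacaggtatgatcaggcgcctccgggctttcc
DHCR7: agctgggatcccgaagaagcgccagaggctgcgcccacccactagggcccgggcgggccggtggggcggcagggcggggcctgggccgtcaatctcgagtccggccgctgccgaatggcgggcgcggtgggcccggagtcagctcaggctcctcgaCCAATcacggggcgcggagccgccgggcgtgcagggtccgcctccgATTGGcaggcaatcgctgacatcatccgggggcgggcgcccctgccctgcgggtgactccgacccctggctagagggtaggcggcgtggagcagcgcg

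The promoter table held 41 windows for 30 of the 34 genes, some genes having several starts, and ACAT2, FDFT1, SQLE and FASN were not in it. CCAAT was present in 27 of the 41 windows (65.9%), against 34.6% of all 35116 windows in the table and 34.7% of the windows of measured genes. Called genes had it in 6 of 11 windows. The GC box letters GGGCGG were in 36 of the 41 windows (87.8%), against 45.0% of all windows and 66.6% of those of measured genes. The E-box CACGTG was in 6 windows (14.6%), those of LSS, SC5D, INSIG1, SCAP and ELOVL5, against 7.26% of all windows and 9.57% of those of measured genes. TCACNCCAC was in 1 window (2.44%), against 1.13% of all. Only these exact letters, with any base at N, were sought, so an element spelled otherwise was not counted. Each motif was sought on both strands. Some windows of the same gene overlap, so the same letters can be counted in more than 1 window. The SC5D windows share their CACGTG and their CCAAT, and the ACLY windows share both their CCAAT matches. CCAAT and GGGCGG were each found in windows of all 4 roles, while CACGTG was in 0 of 9 mevalonate windows. A match is a description of the letters only.

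Transcript length moved with the ratio over all measured genes, with a Spearman correlation of 0.55 across genes, which are not independent replicates. In 5 classes of transcript length with near-equal numbers of genes, the median log2 ratio of all genes was -0.40, -0.11, 0.03, 0.14 and 0.28 from shortest to longest. The 34 genes fell into these classes as 7, 7, 10, 8 and 2, with medians of 0.05, -0.05, 0.27, 0.52 and 0.86, and 30 of the 34 lay above the median of their own class. The longest transcripts were those of ACACA at 9961 bases and FASN at 8565 bases, both called higher. DHCR7 at 2666 bases was called in the class whose median was -0.11, and CYP51A1 at 3210 bases and FADS2 at 3630 bases in the class whose median was 0.03.

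**Figure D3:**
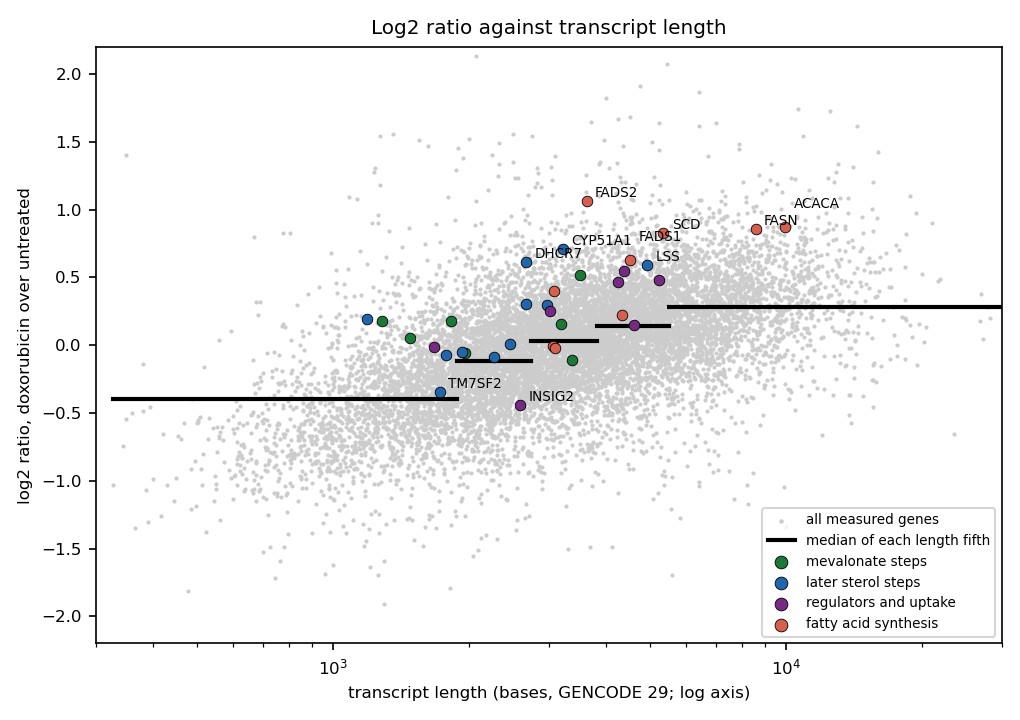
Log2 ratio of doxorubicin over untreated against transcript length on a log axis for all measured genes in grey, of which 6 lie outside the axes, and the 34 genes by role in colour; black lines are medians of the 5 length classes. The medians climb from -0.40 to 0.28, and FADS2, CYP51A1 and DHCR7 stand well above the line for their length while INSIG2 stands below it.

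The ratios were also computed after subtracting the value predicted from transcript length, coding length and GC content over 11193 measured genes, a fit that took up 39.8% of the variance. By the same 1.5-fold rule, 3 of the 34 genes were then higher and 0 lower, against 4.26% of all genes higher and 3.44% lower. The 3 were FADS2 at an adjusted log2 ratio of 0.99, CYP51A1 at 0.72 and SCD at 0.63. DHCR7 at 0.58 came just under the limit, and FASN at 0.53, FADS1 at 0.39, ACACA at 0.34 and LSS at 0.32 also lost their call. Adjusted ratios lay above 0 for 30 of the 34 genes, against 49.8% of all genes, and the adjusted median was 0.29, against 0.00 for all genes. The 4 below 0 were TM7SF2, INSIG2, ACLY and ACSS2.

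PMVK, with a transcript of 1280 bases, gained most from the adjustment among the 34 genes, with an adjusted log2 ratio of 0.58. MVD, at 1823 bases, had an adjusted value of 0.49. SREBF2, at 5240 bases, had an adjusted value of 0.16, against 0.37 for SREBF1 and 0.36 for SCAP. INSIG2 stood at -0.09 (-0.23 to 0.06) and INSIG1 at 0.30 (0.26 to 0.35) after adjustment. By role, the adjusted medians were 0.18 for the mevalonate steps, 0.27 for the later sterol steps, 0.30 for regulators and uptake and 0.39 for fatty acid synthesis, so fatty acid synthesis kept the highest median with a smaller lead. What gives the relation with length was not tested.

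Levels of different genes were compared per kilobase of transcript. The length used for each gene may not be that of the form expressed in H9, so places depend on that choice. In the doxorubicin library ELOVL5 at 181, SCD at 179 and ACLY at 171 CPM per kb were the highest, and in the untreated library ACLY at 146, EBP at 145 and ELOVL5 at 138 CPM per kb. FASN stood at 103 CPM per kb in the doxorubicin library and 56.9 CPM per kb in the untreated library, and FADS2 at 51.5 CPM per kb (place 10 of 34) with doxorubicin and 24.6 CPM per kb (place 17) untreated. At the low end, TM7SF2 had 3.55 CPM per kb in the doxorubicin library and 4.51 CPM per kb in the untreated library, and STARD4 had 4.76 CPM per kb with doxorubicin and 4.30 CPM per kb untreated. FADS2 thus gained the most places among the 34 genes, while TM7SF2 and STARD4 held the last 2 places in both libraries.

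Other genes of these pathways were read from 6 further lists with 105 genes, of which 90 were measured, 9 were higher and 3 lower, with a median log2 ratio of 0.04. All measured genes, as above, had 7.26% higher and 9.57% lower, so the share called higher in these lists is near that of all genes. Of 21 measured genes for other elongation, activation and lipogenic steps, 4 were higher. GPAM, which starts triglyceride synthesis, had 1230 counts in the doxorubicin library and 426 in the untreated library, 1.85-fold higher (1.66 to 2.07), and ACACB, the mitochondrial acetyl-CoA carboxylase, had 306 counts with doxorubicin and 118 untreated, 1.66-fold higher (1.34 to 2.07). The others called, named after their values were seen, were ELOVL4 and LPIN1, each 1.57-fold higher. ELOVL4 had only 84 counts in the doxorubicin library and 34 in the untreated library (1.05 to 2.43), so its ratio is loosely known. LPIN1 had 4093 counts with doxorubicin and 1667 untreated (1.49 to 1.67). After the length and GC adjustment GPAM and ELOVL4 kept their calls, and ACACB at 0.18 and LPIN1 at 0.32 did not. The median of this list was 0.09, below that of the 9 fatty acid synthesis genes.

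Among 13 measured genes that process SREBP or degrade proteins of the endoplasmic reticulum, 2 were higher. MBTPS2, the protease that makes the second of the cuts releasing SREBP, had 3020 counts in the doxorubicin library and 1019 in the untreated library, 1.90-fold higher (1.77 to 2.04). YY2 overlaps 12.2% of its exon bases. SPRING1, a partner of the protease that makes the first cut, had 2914 and 1240 counts in the doxorubicin and untreated libraries, 1.51-fold higher (1.41 to 1.61). After the length and GC adjustment MBTPS2 kept its call at 0.88 and SPRING1, at 0.41, did not.

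Of 16 measured genes for the LXR response, efflux, storage and transport, 1 was higher. It was NR1H3, which encodes the sterol sensor LXR-alpha, with 616 counts in the doxorubicin library and 243 in the untreated library, 1.62-fold higher (1.40 to 1.89). NR1H3 kept its call after the length and GC adjustment, at 0.78. Of 21 measured fatty acid oxidation genes, 2 were higher. CPT2, which acts in mitochondrial fatty acid import, had 1238 and 507 counts, and PPARA, a nuclear receptor for fatty acids, had 881 and 372 counts, in the doxorubicin and untreated libraries. They were 1.57-fold and 1.52-fold higher, and neither kept its call after the adjustment.

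The 3 genes called lower encode a branch enzyme and relatives or partners of the sterol enzymes. GGPS1, which turns farnesyl diphosphate toward protein prenylation, had 1473 counts in the doxorubicin library and 1641 in the untreated library, 1.74-fold lower (1.62 to 1.86). It was 1 of 11 measured genes of the isoprenoid branch and is uncertain, since 41.0% of its exon bases overlap another gene. Of 8 measured partners and relatives of the sterol enzymes, 2 were lower and the median log2 ratio was -0.41, with 3 genes above 0 and 5 below. Among those above 0 was LBR, a second sterol reductase beside TM7SF2, at 330 CPM in the doxorubicin library and 243 CPM in the untreated library. Its log2 ratio of 0.44 (0.40 to 0.48) was not called. EBPL, a relative of EBP, had 882 counts in the doxorubicin library and 1070 in the untreated library, 1.89-fold lower (1.73 to 2.07), and 13.5% of its sampled stretches are shared with other genes. CYB5A, the cytochrome that passes electrons to desaturases, had 2535 counts with doxorubicin and 2551 untreated, 1.57-fold lower (1.48 to 1.66). After the adjustment GGPS1 kept its call at -0.61, and EBPL at -0.40 and CYB5A at -0.42 did not.

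**Figure D4:**
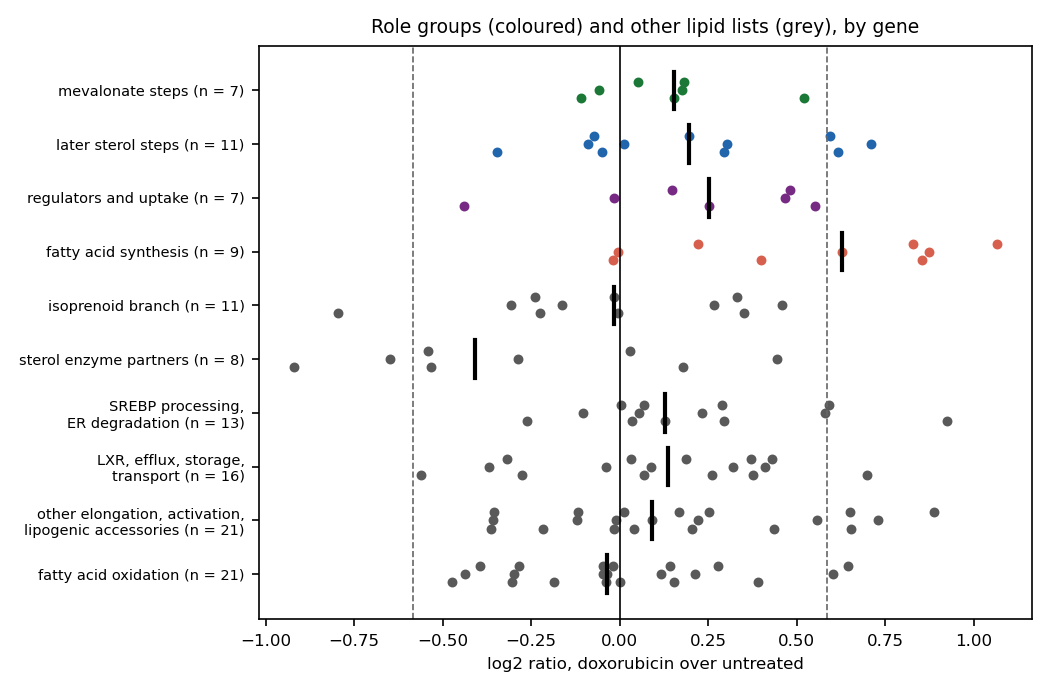
Log2 ratio of doxorubicin over untreated for each measured gene of the 4 roles (coloured) and of 6 other lipid lists (grey), with the median of each as a black bar and dashed lines at 1.5-fold. The fatty acid synthesis median of 0.63 lies to the right of all other bars, and the median of the sterol enzyme partners, -0.41, to the left of them.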

How the data were processed

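Gene counts of H9 mRNA libraries, deposited by the authors as 1 table of raw counts per gene symbol, were used as given. Per the submitters' processing notes they used HISAT2, featureCounts and hg19; versions, annotation, strand setting and treatment of multiply mapped reads are, in the sources used here, not given. The table holds 1 doxorubicin and 1 untreated library, with 0 further sample columns. Of 19220 symbols, 4570 were 0 in both libraries and 11244 had at least 100 counts in all, and these were treated as measured.

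Library sizes were scaled by TMM in edgeR 4.0.16 under R 4.3.3 to 51369832 (doxorubicin) and 32945775 (untreated), where 3 counts equal 0.0584 and 0.0911 CPM. Log2 ratios used 0.5 added counts, and exact Clopper-Pearson 95% intervals came from SciPy 1.17.1. With 1 library per group no test was made. Transcript length, coding length, GC content, exon overlap and shared 50-base stretches came from GENCODE 29. Lengths and GC content were those of each gene's longest transcript paired with RefSeq, where such a transcript was present. The adjustment used B-splines of 4 degrees of freedom per property (patsy 1.0.2). The scripts were tested on simulated data.

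All 34 genes are accounted for: counts and interval are given for called genes and, per role, for the most counted, highest and lowest, and always for the INSIG and SREBF genes, SCAP and MYLIP. From each other list, up to 2 called genes per direction are named, and LBR was added after its values were seen. The genes and lists were chosen with earlier results of these data known. From the other lists, 1 gene was not matched, and ERG28 and SPRING1 were matched through RefSeq synonyms. Alternatives were DESeq2 1.42.0 size factors, total counts, other count minimums, added counts, size limits and intervals, the length and GC adjustment, and leaving out overlapped genes.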

Additional observations from a re-analysis of the deposited data

How the results depend on the processing

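The 8 called genes were the same with DESeq2 size factors, no count minimum, a minimum of 500, 5 added counts and 99% intervals, and no called gene changed direction under any alternative run. With total counts 10 genes were higher, HMGCS1 and SCAP being added, and the median log2 ratio was 0.22 for the mevalonate steps, 0.32 for regulators and 0.70 for fatty acid synthesis; higher genes made up 56.0% of calls over all genes, against 43.1% with TMM, and 5 uncalled genes (MVK, NSDHL, MYLIP, ACSS2 and ELOVL6) changed sign. After the length and GC adjustment 3 genes were higher, the medians were 0.30 for regulators and 0.39 for fatty acid synthesis, and 8 uncalled genes (MVK, IDI1, MSMO1, NSDHL, EBP, MYLIP, ACLY and ELOVL6) changed sign; the cause was not tested. At a size limit of 0.32 on the log2 scale 13 genes were higher and 2 lower (20.4% and 21.5% of all genes), and at 2-fold 1 was higher (1.14% of all genes) and 0 lower. Without overlapped or shared genes, the later sterol median was 0.012 over 9 genes. The genes of this role left out were CYP51A1, its highest log2 ratio at 0.71, and HSD17B7, its median at 0.20. No replicate could be left out with 1 library per group, and no paired analysis was possible because the groups have 1 library each. TM7SF2, the gene with the fewest counts, rests on 314 and 256 counts in the doxorubicin and untreated libraries, so its log2 ratio is known only to -0.59 to -0.10 from counting error alone.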
